A study of Mus musculus with 13 samples.

Results

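The Serpin family was examined in the RNA-seq of damaged hepatocytes (dHeps), which are liver parenchymal cells taken from wild-type mice whose livers had been injured repeatedly with CCl4 (carbon tetrachloride). A gene was a member when its symbol had the form Serpin, a clade letter from a to i, a number and at most 1 further letter, and when it had at least 10 counts in at least 2 libraries. Of 27141 genes in the table, 53 had such a symbol and 40 met the count rule. There were 18 members in clade A, 13 in clade B, 2 each in clades E and F, and 1 each in clades C, D, G, H and I. All groups were cultured for 16 days in the same serum-free Hepatocyte Maintenance Medium. The groups were the solvent dimethyl sulfoxide (DMSO), a cocktail of 5 compounds (5C), and 5C lacking 1 compound. The compounds were GSK429286A (G), an inhibitor of the kinase ROCK, CID755673 (C), an inhibitor of protein kinase D, ETC-1002 (E), an activator of the kinase AMPK, Salidroside (S), a glycoside from plants, and forskolin (F), which activates adenylate cyclase. There was 1 library of 5C-S, and every other group (DMSO, 5C, 5C-F, 5C-E, 5C-C and 5C-G) had 2, called A and B. By the study's methods, replicates are separate biological ones, though the labels do not say which mice or cultures the libraries came from. Nothing stated that the letters pair libraries between groups.

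Serpins are a family of proteins with a common fold, most of which inhibit proteases. The target protease cuts an exposed reactive centre loop, the loop inserts into the body of the serpin, and the protease is trapped as a distorted complex. Hepatocytes secrete most plasma serpins of clades A, C, D, F and G, stromal and endothelial cells are known for those of clade E, and clade B serpins mostly stay inside the cell. Some members have lost inhibition and carry hormones or, as HSP47 (Serpinh1) does, chaperone collagen in the endoplasmic reticulum.

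Total counts per library ran from 30195867 to 45491932, and the 40 members together took 0.54% to 0.781% of them. Genes that define hepatocytes (7 of 8 listed were in the table, Alb and Hnf4a among them) were present in every library, but so were markers of other cells. The summed FPKM (fragments per kilobase of gene and per 1e6 fragments) of the 7 hepatocyte markers was 10585 to 11795 in DMSO, 11028 to 11115 in 5C, 6484 to 7792 in 5C-G, 4862 to 5361 in 5C-C, 3252 to 3776 in 5C-E and 17254 to 21706 in 5C-F. Over all libraries Alb ran from 2122 to 18255 FPKM and Apoa1 from 606 to 2952. No other of the 7 was above 644, so the sum mostly follows Alb. Against 5C, 4 of the 7 were called lower and 1 higher in 5C-G, 3 lower in 5C-C, 3 lower in 5C-E and 2 higher in 5C-F, where 13.1%, 20.2%, 1.96% and 4.84% of all genes were called either way by the rule given with the counts of members. The 8 macrophage markers summed to 4687 to 4711 in DMSO, 476 to 558 in 5C, 4757 to 6725 in 5C-G, 931 to 1589 in 5C-C, 660 to 779 in 5C-E and 1521 to 1854 in 5C-F. The 9 markers of stellate cells and fibroblasts summed to 1264 to 1324 in DMSO, 1467 to 1468 in 5C, 1950 to 2341 in 5C-G, 1376 to 1598 in 5C-C, 1672 to 1811 in 5C-E and 897 to 985 in 5C-F. The 5 of cholangiocytes summed to 2598 to 2958 in DMSO, 3166 to 3422 in 5C-F and 1513 to 2437 in 5C and the other removals with 2 libraries. That sum mostly follows Spp1, at 1318 to 3243 FPKM over all libraries, while the next highest, Krt19, was at 68 to 224. The 5 endothelial markers in the table summed to 77.9 to 89.3 in DMSO, 12.3 to 13.7 in 5C, 41.5 to 45.2 in 5C-G, 9.34 to 15.2 in 5C-C, 27.1 to 28.5 in 5C-E and 18.1 in 5C-F, with Pecam1 and Cdh5 at 0 in 5C and 5C-F. Nearly all of this sum was Lyve1 (2.82 to 77.3 FPKM over all libraries) and Kdr (3.1 to 23). Pecam1, Cdh5 and Stab2 were at most at 0.117, 0.262 and 0.453 in any library. T and B cell markers were at or near 0. In bulk RNA, fewer cells of a type and less RNA per cell cannot be told apart, and the part of these markers in the results below was not tested.

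The clade A genes of the mouse form clusters of recent copies, which matters for what their counts mean. The 5 copies of the gene for alpha-1-antitrypsin, the main plasma inhibitor of neutrophil elastase, lie on the minus strand of chromosome 12 (GRCm39, GENCODE vM39 annotation) between Serpina1b at 103694413 and Serpina1e at 103925234. Their coding sequences were 96.3% to 98.5% identical over the 10 pairs. Of all 150-base windows of the annotated transcript, 49.3% in Serpina1c, 40.7% in Serpina1a, 18.4% in Serpina1b, 16.4% in Serpina1d and 8.65% in Serpina1e were found without a mismatch in another member. The stretches below code for the reactive centre loop from its hinge onward, codons 363 to 387 of 413, all within exon 5 of 5 and all read from the minus strand of chromosome 12. They are shown because the copies differ here in the part that meets the protease, and capitals mark the 18 of 75 positions at which the 5 copies are not all the same.
Serpina1a (chr12:103820015-103820089): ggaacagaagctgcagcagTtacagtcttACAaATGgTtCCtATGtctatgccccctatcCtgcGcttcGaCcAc
Serpina1b (chr12:103694582-103694656): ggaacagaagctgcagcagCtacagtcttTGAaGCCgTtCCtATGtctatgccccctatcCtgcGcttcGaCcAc
Serpina1c (chr12:103861352-103861426): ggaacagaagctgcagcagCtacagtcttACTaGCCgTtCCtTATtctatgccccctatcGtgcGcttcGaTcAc
Serpina1d (chr12:103730020-103730094): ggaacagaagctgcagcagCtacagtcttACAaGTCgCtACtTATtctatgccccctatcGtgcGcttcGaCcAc
Serpina1e (chr12:103913358-103913432): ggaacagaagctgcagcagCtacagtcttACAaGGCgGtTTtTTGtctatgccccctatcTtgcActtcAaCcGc
The codon just before the cleaved bond, which largely sets the protease an inhibitor can trap, was ATG in Serpina1a and Serpina1b, TAT in Serpina1c and Serpina1d, and TTG in Serpina1e. The lettered Serpina3 genes, relatives of human alpha-1-antichymotrypsin on the same chromosome, were less alike. Among the 8 with a coding sequence the identity ranged from 36.4% (Serpina3a and Serpina3g, aligned end to end) to 91.1% (Serpina3k and Serpina3m), and at most 0.149% of the 150-base windows of any of them recurred in another member. Serpina3h is annotated as a transcribed pseudogene. Serpina1b overlaps Serpina1d, and Serpina3k overlaps Serpina3m, on the same strand, and how the counting divided such reads was not given in the sources used here. Values of single copies are uncertain for these reasons, so the sum of each copy family is given beside them.

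Members differed greatly in level. On the FPKM scale, which corrects for gene length, 10 members reached at least 100 in some library, 23 reached at least 10, and 5 stayed under 1 in every library. Serpina3n, Serpina3k and Serpinh1 were among the 4 members with the highest group means in both 5C and DMSO. The lowest were Serpina3a, Serpina6, Serpinb9c, Serpinb9e and Serpinb9f. Serpina6, which encodes corticosteroid-binding globulin, was listed at 0 in 6 of 13 libraries and at most at 0.205. Serpina3a met the count rule in 4 libraries, Serpina6 and Serpinb9c in 2, and the 13 symbols just outside it had at most 26 counts in a library. Among those, Serpina12, which encodes vaspin, had 13 counts over all libraries.

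**Figure D1:**
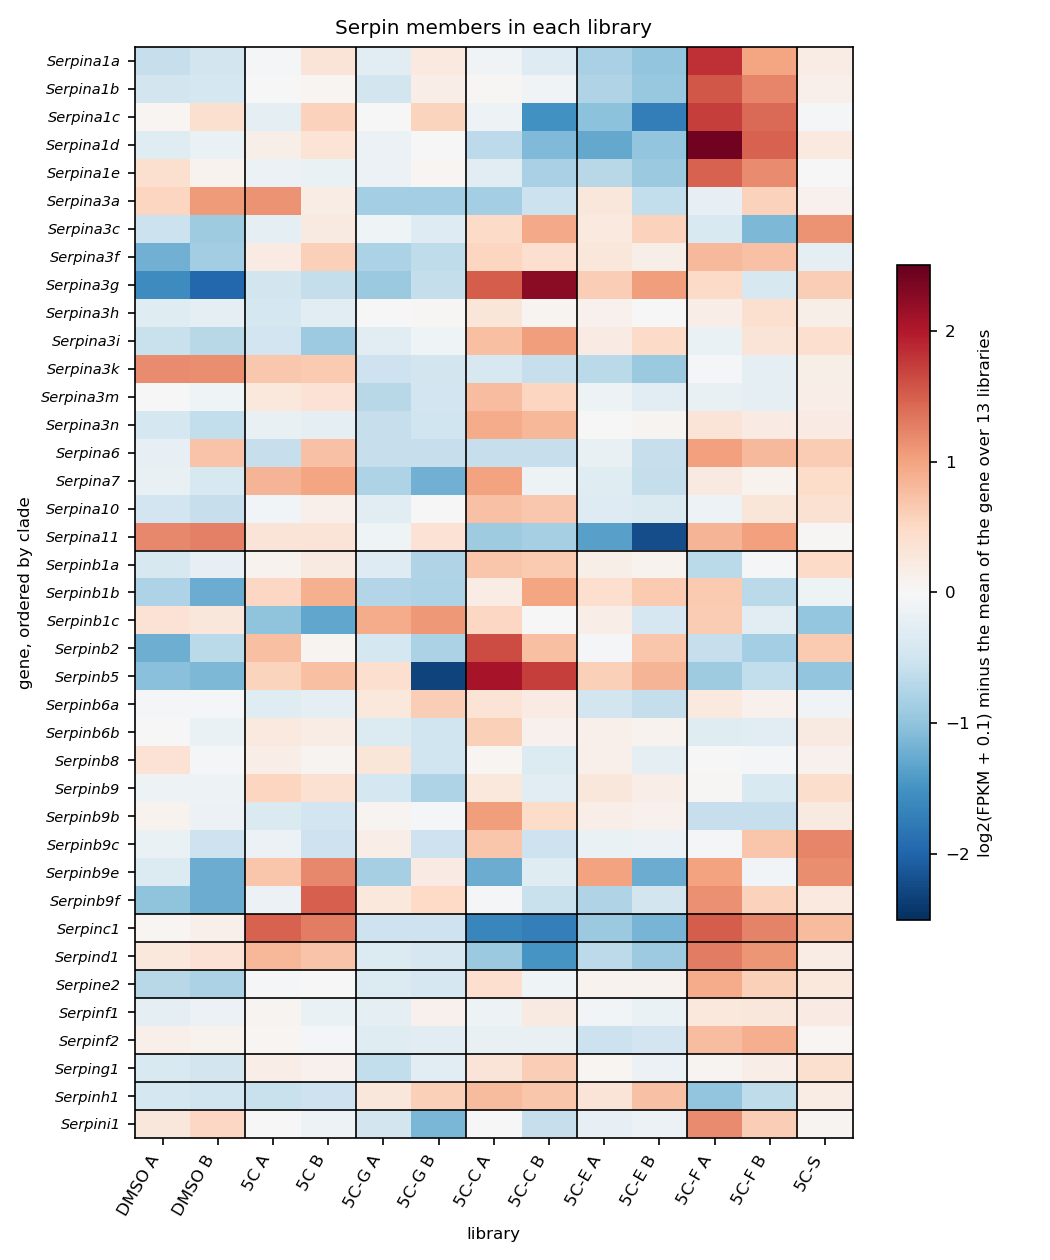
Levels of 39 Serpin members in the 13 libraries, as log2(FPKM + 0.1) minus the mean of each gene over all libraries. Rows are ordered by clade with lines between clades, columns by group. Serpinc1 and Serpind1 are high in 5C and 5C-F and low in 5C-G, 5C-C and 5C-E, Serpinh1 shows the opposite order, and the 5 Serpina1 copies are highest in both 5C-F libraries.

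Each comparison was tested with edgeR over the 19884 genes that passed the filter on low counts, all 40 members among them. A call required an adjusted p below 0.05 over all these genes and a log2 fold change beyond 1. For 5C against DMSO, 2 members were higher and 0 lower, where 1.66% of all genes were called higher, 2.89% lower and 4.55% either way. For 5C-G against 5C, 2 members were higher and 4 lower, against 7.47% and 5.64% of all genes, 13.1% in all. For 5C-C against 5C, 6 were higher and 2 lower, against 9.65% and 10.5%, 20.2% in all. For 5C-E against 5C, 2 were higher and 7 lower, against 0.654% and 1.31%, 1.96% in all. For 5C-F against 5C, 5 were higher and 0 lower, against 2.69% and 2.15%, 4.84% in all. Of these counts, 3 of the 8 in 5C-C are Serpina3 genes and 4 of the 5 in 5C-F are near-identical Serpina1 copies. The lettered copies of Serpina1, Serpina3, Serpinb1, Serpinb6 and Serpinb9 were also summed by family. With each copy family summed and counted once, the number called was 2 for 5C against DMSO, 4 each for the removals of G and C, 6 for that of E and 2 for that of F. The Serpinb9 sum was called in 5C-C (1.18), and the Serpinb1 sum in neither 5C-G (-0.41) nor 5C-C (0.68). In the removals of G and C the 6 and 8 members called of 40 stood close to the background, and in the removal of E the 9 of 40 stood far above it. Counts of members by comparison do not show that the removals differ from each other, since all 4 share the 5C libraries. Serpinc1, Serpind1 and Serpinh1 were called in 3 removals each, another 6 members in 2, 7 in 1, and 24 members in no comparison with 5C. The count of 2 for 5C against DMSO became 10 when only the 4 libraries of that comparison were fitted and 6 with DESeq2, and without DMSO A, DMSO B or 5C B it was 1. The count of 9 for 5C-E was between 3 and 6 with any 1 of its 4 libraries left out, and 3 without 5C B or without 5C-E B. The count of 5 for 5C-F became 3 without 5C A.

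Serpinc1 encodes antithrombin, the main plasma inhibitor of thrombin and factor Xa. Its level was 2.64 and 2.81 FPKM in DMSO, 7.3 and 6.33 in 5C, and 7.48 and 6.15 in 5C-F. Without another compound it was 1.76 and 1.76 in 5C-G, 0.758 and 0.716 in 5C-C, and 1.3 and 1.1 in 5C-E, all below both DMSO libraries. The single 5C-S library lay between DMSO and 5C at 4.48. Serpinc1 rose in 5C against DMSO (log2 fold change 1.25 ± 0.20, SE, adjusted p = 0.000397). It fell in 5C-C (-3.04 ± 0.21, adjusted p = 1.8e-07), 5C-E (-2.58 ± 0.21, adjusted p = 1.88e-06) and 5C-G (-1.81 ± 0.20, adjusted p = 8.69e-06), and these calls held with any 1 library left out. It is the only member that was called in both 5C against DMSO and 3 removals.

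Serpind1 encodes heparin cofactor II, another thrombin inhibitor, which is activated by glycosaminoglycans. It was at 19.1 and 20.3 FPKM in DMSO, 28.2 and 26.1 in 5C, 12.4 and 11.8 in 5C-G, 8.27 and 5.64 in 5C-C, 10 and 8.46 in 5C-E, 38.7 and 34.2 in 5C-F, and 18.1 in 5C-S. Again the libraries lacking G, C or E lay below all libraries of DMSO, 5C and 5C-F. Against 5C it fell in 5C-C (-1.81 ± 0.20, adjusted p = 1.46e-05), 5C-E (-1.63 ± 0.20, adjusted p = 0.000121) and 5C-G (-1.03 ± 0.20, adjusted p = 0.00124). The last value slipped under the fold threshold without 5C A (-0.99) or 5C-G A (-0.98). In contrast with Serpinc1, the difference between 5C and DMSO was not called (0.39, adjusted p = 0.326). Serpinc1 and Serpind1 overlap genes on the other strand (Zbtb37 and Pi4ka), and the library kit named in the labels does not mark strand. Serpina10, the protein Z-dependent inhibitor of factor Xa, ran from 7.83 FPKM in DMSO B to 19.5 in 5C-C A and passed the p threshold but not the fold threshold in 5C-C (0.83, adjusted p = 0.00309).

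**Figure D2:**
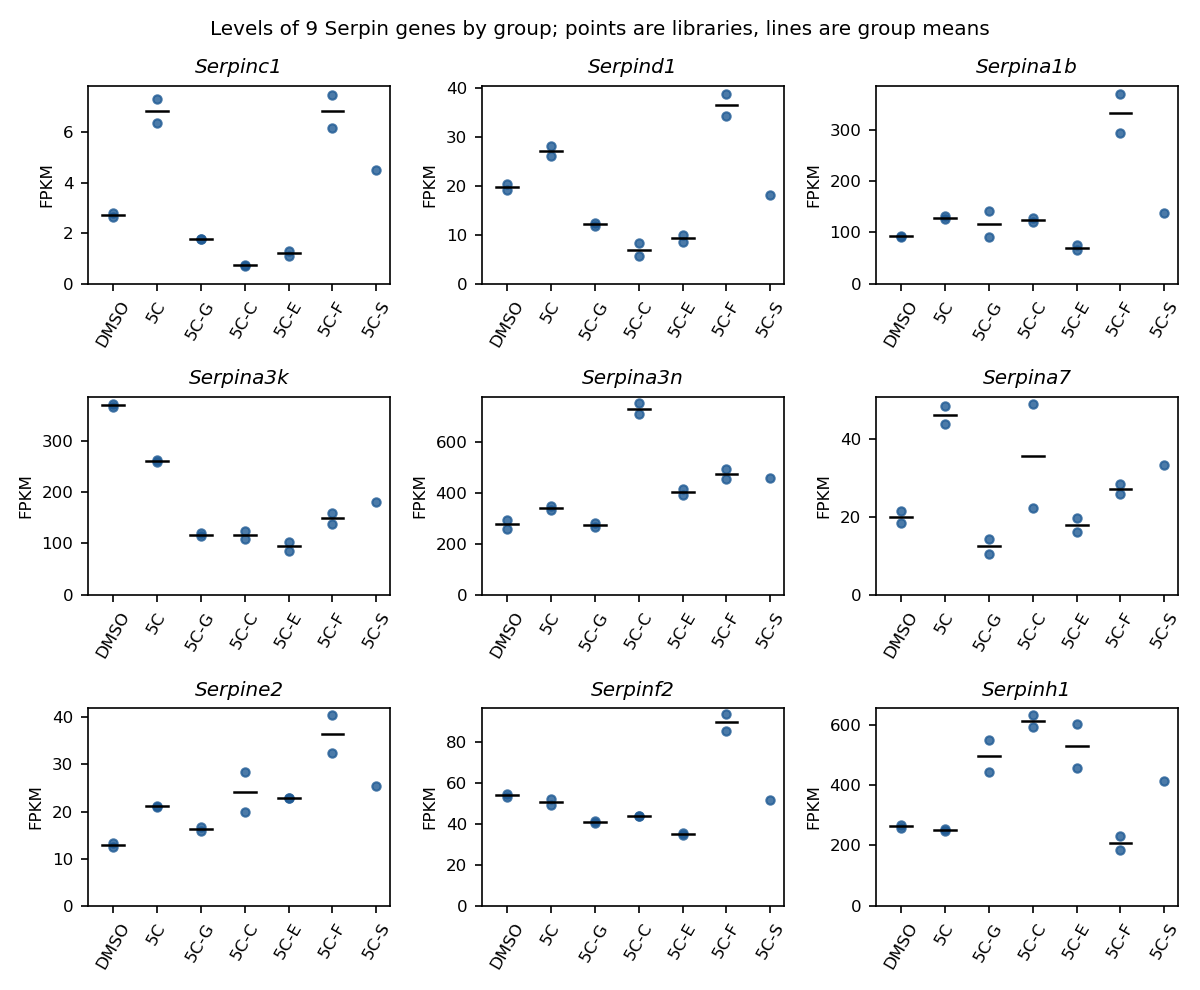
FPKM of 9 Serpin genes in each group, with a point per library and a line at the mean of groups with 2 libraries; every vertical axis starts at 0. Serpinc1 and Serpind1 are low in 5C-G, 5C-C and 5C-E, where Serpinh1 is high, while Serpina1b, Serpine2 and Serpinf2 stand highest in 5C-F.

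Alpha-1-antitrypsin followed another order. Its 5 copies summed to 444 and 495 counts per 1e6 counts (CPM) in 5C, 327 and 335 in DMSO, 259 and 230 in 5C-E, and 1436 and 1018 in 5C-F. The sums in 5C-G (344 and 510), 5C-C (438 and 393) and 5C-S (498) ran from a value close to DMSO to one close to 5C. With the copies summed before the fit, the family rose in 5C-F (1.49 ± 0.23, adjusted p = 0.000976) and fell in 5C-E (-1.01 ± 0.23, adjusted p = 0.0189). No call was made in 5C-G (0.02, adjusted p = 0.985), 5C-C (-0.01, adjusted p = 0.982) or 5C against DMSO (0.43, adjusted p = 0.352). Antithrombin and heparin cofactor II fell in 5C-G and 5C-C, where the antitrypsin sum was not called.

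In the removals of F and E, where the sum was called, all 5 copies had the sign of the sum. Serpina1b, the most counted copy, was at 125 and 132 FPKM in 5C and at 370 and 294 in 5C-F. Its libraries in the other groups stood between 65.6 (5C-E B) and 143 (5C-G B), none near those of 5C-F. In 5C-F, Serpina1d rose by 1.89 (SE 0.28, adjusted p = 0.000733), Serpina1e by 1.62 (adjusted p = 0.00201), Serpina1b by 1.47 (adjusted p = 0.000912) and Serpina1a by 1.43 (adjusted p = 0.00375), while Serpina1c had a like value that missed the threshold (1.51, adjusted p = 0.0674). The call of Serpina1a was lost without 5C A or 5C-F A. In 5C-E, Serpina1d (-1.47, adjusted p = 0.00607) and Serpina1a (-1.12, adjusted p = 0.028) were called lower and Serpina1b (-0.95, adjusted p = 0.0246), Serpina1c (-1.77, adjusted p = 0.0976) and Serpina1e (-0.74, adjusted p = 0.201) were not. Each call in 5C-E was lost without 5C B, 5C-E A or 5C-E B, and that of Serpina1a without 5C A as well. Serpina1d had -0.96 (adjusted p = 0.0111) in 5C-C, where the sum had -0.01. Serpina1b held 62.3% to 73.5% of the summed counts, Serpina1a 21.7% to 28%, Serpina1d 2.52% to 8.02%, Serpina1e 1.2% to 3.41% and Serpina1c 0.179% to 0.9%. Serpina1d had its largest share in 5C-F A and its smallest in 5C-C B.

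**Figure D3:**
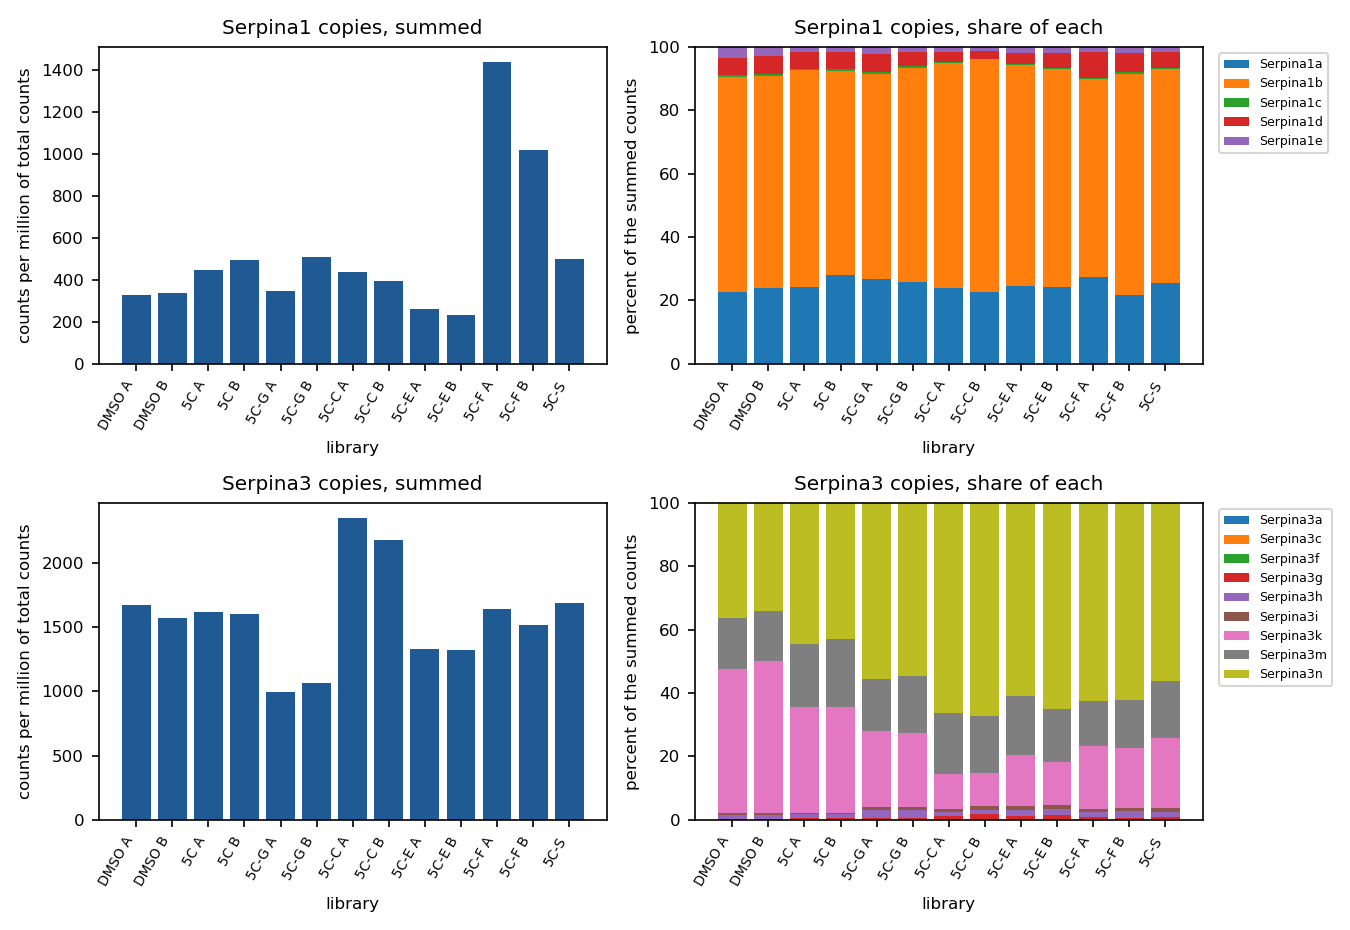
Left, CPM summed over the 5 Serpina1 copies (top) and the 9 Serpina3 members (bottom) in each library; right, the percent of that sum held by each copy. The Serpina1 sum is 1436 and 1018 in 5C-F against 444 and 495 in 5C with Serpina1b holding 62.3% to 73.5% in all libraries, whereas in Serpina3 the share of Serpina3k goes from 45.6% and 48% in DMSO to 10.9% and 10.3% in 5C-C.

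The Serpina3 genes, some of which are known to encode acute-phase proteins, did not move as 1 group. Their sum was 1675 and 1575 CPM in DMSO and 1622 and 1607 in 5C, and it ran from 996 (5C-G A) to 2351 (5C-C A). Its difference from 5C passed the p threshold but not the fold threshold in 5C-G (-0.51, adjusted p = 0.0208) and 5C-C (0.65, adjusted p = 0.00312). In percentage points, the share of Serpina3k had the widest range of the 9 within that sum, while as a ratio that of Serpina3g, from 0.118% (DMSO B) to 1.75% (5C-C B), was wider. Serpina3k held 45.6% and 48% of the counts in DMSO, 33.4% and 33.3% in 5C, 23.7% and 23.2% in 5C-G, 16.1% and 13.4% in 5C-E, 19.9% and 18.8% in 5C-F, 22.2% in 5C-S, and 10.9% and 10.3% in 5C-C. No library of another group reached the share of DMSO or of 5C.

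Serpina3k, the kallikrein-binding protein of mouse plasma, was at 371 and 367 FPKM in DMSO, 263 and 259 in 5C, 114 and 120 in 5C-G, 124 and 109 in 5C-C, 103 and 86 in 5C-E, 158 and 139 in 5C-F, and 182 in 5C-S. It was lower in every removal library than in either 5C library. It fell in 5C-E (-1.53 ± 0.17, adjusted p = 4.49e-05) and 5C-G (-1.02 ± 0.17, adjusted p = 0.000401), the latter being under the fold threshold without 5C-G A (-0.90). It passed the p threshold alone in 5C-C, where it lay just short of the fold threshold (adjusted p = 0.000296), and in 5C-F (-0.71 ± 0.17, adjusted p = 0.0142). For 5C against DMSO it had -0.57 (adjusted p = 0.0516).

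Serpina3n, an inhibitor of granzyme B and leukocyte elastase, was at 295 and 261 FPKM in DMSO, 350 and 334 in 5C, 267 and 282 in 5C-G, 754 and 711 in 5C-C, 392 and 416 in 5C-E, 497 and 457 in 5C-F, and 459 in 5C-S. Both 5C-C libraries stood above all the others. It rose in 5C-C (1.26 ± 0.16, adjusted p = 4.16e-05), a value that shrank to 0.78 with GC content and length as an offset, and passed the p threshold alone in 5C-F (0.58, adjusted p = 0.027). Serpina3g rose in 5C-C from 2.7 and 2.44 to 10.8 and 18.1 FPKM (2.66, adjusted p = 6.47e-05) and Serpina3i from 4.21 and 3.1 to 10.1 and 12.4 (1.79, adjusted p = 9.46e-05). Serpina3g was also called in 5C-E (1.34, adjusted p = 0.046), but that call was lost when any 1 of the 4 libraries compared was left out. Serpina3m lay at 186 and 201 FPKM in 5C, 96.8 and 111 in 5C-G and 265 and 226 in 5C-C, and it passed the p threshold without the fold in 5C-G (-0.75, adjusted p = 0.00388) and 5C-C (0.50, adjusted p = 0.0279). Serpina3h stayed between 12.9 and 23.1 FPKM in all libraries, and Serpina3a, Serpina3c and Serpina3f at or under 1.19, with no call against 5C.

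Serpina7 encodes thyroxine-binding globulin (TBG), a carrier of thyroid hormone that inhibits no protease. A TBG promoter, of a species the study does not state, drives the Cre recombinase used elsewhere in the study to trace hepatocytes. Serpina7 was at 21.5 and 18.5 FPKM in DMSO, 43.9 and 48.5 in 5C, 14.3 and 10.6 in 5C-G, 49 and 22.3 in 5C-C, 19.8 and 16.1 in 5C-E, 28.4 and 26 in 5C-F, and 33.5 in 5C-S. The 2 libraries of 5C-C disagreed, with 1 just above both 5C libraries and 1 just above both DMSO libraries. It rose in 5C against DMSO (1.13 ± 0.26, adjusted p = 0.0109) and fell in 5C-G (-1.77 ± 0.26, adjusted p = 0.000174) and 5C-E (-1.43 ± 0.26, adjusted p = 0.00451). The first call was lost without DMSO A (adjusted p = 0.0638), DMSO B (0.157) or 5C B (0.109), and that in 5C-E without 5C B (0.0723) or 5C-E B (0.137). With GC content and length as an offset the values were 0.86 and -0.95, under the fold threshold. Serpina11, a secreted liver serpin of little-known function, was at 3.14 and 3.29 FPKM in DMSO, 1.66 and 1.67 in 5C and 0.453 and 0.206 in 5C-E. Its fall in 5C-E (-2.39 ± 0.47, adjusted p = 0.00757) was lost without 5C B (0.0567) or 5C-E B (0.214). In 5C against DMSO it had -1.02 (adjusted p = 0.206).

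**Figure D4:**
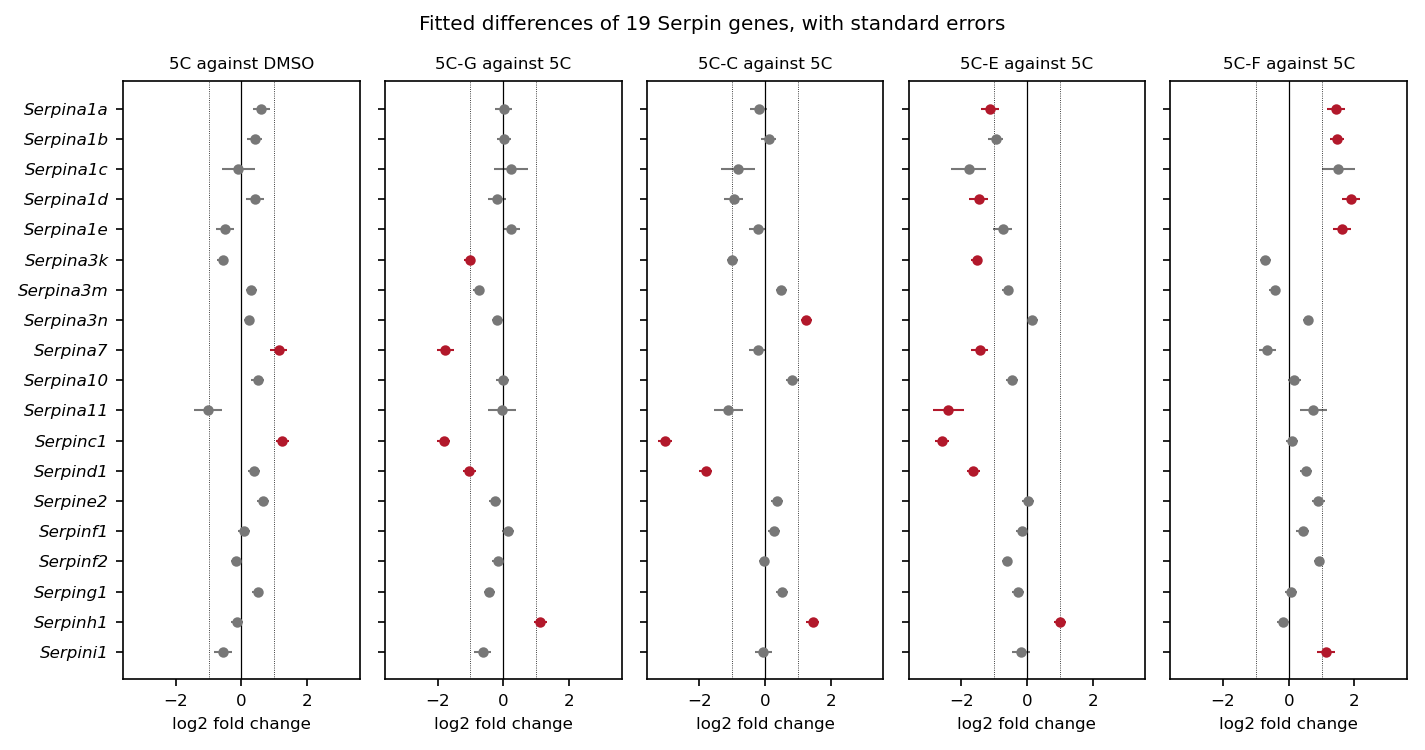
Log2 fold changes of 19 Serpin genes in the 5 tested comparisons, with bars of 1 standard error on either side; red points were called (adjusted p below 0.05 and a log2 fold change beyond 1, dotted lines) and grey points were not. In 5C-G, 5C-C and 5C-E, Serpinc1 and Serpind1 lie on the left and Serpinh1 on the right, and in 5C-F the 5 Serpina1 copies lie on the right.

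Serpine2, or protease nexin-1, a thrombin and urokinase inhibitor of the cell surface, was at 13.2 and 12.4 FPKM in DMSO, 21 and 21.2 in 5C and 40.6 and 32.4 in 5C-F. It passed the p threshold alone for 5C against DMSO (0.65 ± 0.19, adjusted p = 0.046) and for 5C-F (0.90 ± 0.19, adjusted p = 0.00703). Serpinf2, which encodes alpha-2-antiplasmin, the plasmin inhibitor of plasma, was at 51.9 and 49.1 FPKM in 5C, 34.4 and 35.6 in 5C-E and 85.5 and 93.6 in 5C-F. Its differences passed p but not fold in 5C-F (0.92, adjusted p = 0.00204) and 5C-E (-0.60, adjusted p = 0.0478). Serpinf1, or PEDF, an antiangiogenic factor without inhibitory function, was between 89.7 and 130 FPKM in all libraries, with no call. Serping1, the C1 inhibitor of complement and kallikrein, ran from 143 (5C-G A) to 337 (5C-C B) FPKM, and against 5C it reached the p threshold in 5C-C alone (0.51, adjusted p = 0.0377). Serpini1, or neuroserpin, an inhibitor of tissue plasminogen activator best known from neurons, rose in 5C-F from 2.19 and 1.99 to 5.12 and 3.41 FPKM (1.14 ± 0.27, adjusted p = 0.0146), a call lost without 5C A, 5C B or 5C-F A and with limma.

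Serpinh1 encodes HSP47, the collagen chaperone, and had the highest group mean of all members in 5C-G and 5C-E. It was at 269 and 258 FPKM in DMSO, 247 and 255 in 5C, 443 and 549 in 5C-G, 634 and 592 in 5C-C, 456 and 603 in 5C-E, 185 and 233 in 5C-F, and 415 in 5C-S. All libraries of 5C-S, 5C-E, 5C-C and 5C-G lay above all libraries of DMSO, 5C and 5C-F. It rose in 5C-C (1.45 ± 0.19, adjusted p = 5.01e-05), 5C-G (1.13 ± 0.19, adjusted p = 0.000394) and 5C-E (1.01 ± 0.19, adjusted p = 0.00495) and not in 5C-F (-0.17, adjusted p = 0.601) or in 5C against DMSO (-0.14, adjusted p = 0.77). The value in 5C-G was 0.86 without 5C-G B, 0.98 with total counts only and 0.61 with GC content and length as an offset. The same offset gave 0.83 in 5C-C and 0.90 in 5C-E, and the call in 5C-E was lost without 5C A (adjusted p = 0.109), 5C B (0.0599) or 5C-E B (0.167). GC-rich genes stood higher than GC-poor ones in all 4 removals (Spearman rho 0.33, 0.39, 0.31 and 0.24 across genes for G, C, E and F), and Serpinh1 has a GC content of 54.7%. Beyond that offset, the part of GC content in the values of Serpinh1 was not tested.

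Of 10 listed collagen genes, whose products HSP47 chaperones, 0, 1, 1 and 2 were called in the removals of G, C, E and F, where 13.1%, 20.2%, 1.96% and 4.84% of all genes were called either way. In 5C-G, 3 passed the p threshold alone upward and 3 downward, with a median log2 fold change of 0.21. In 5C-C, Col6a3 was called lower (-1.79, adjusted p = 9.08e-06), 4 passed p alone upward and 2 downward, with a median of 0.07. In 5C-E, Col5a1 was called higher (1.16, adjusted p = 0.000608, a call lost without 5C-E B), 3 passed p alone upward, Col3a1 among them (0.96, adjusted p = 0.00125), and 9 of 10 were above 0, with a median of 0.54. In 5C-F all 10 were below 0 (median -0.76), where Col1a2 (-1.55, adjusted p = 0.0135) and Col6a1 (-1.02, adjusted p = 0.000936) were called lower, the former in no fit with 1 of its 4 libraries left out and the latter not without 5C B or 5C-F A. Among 10 enzymes that modify or fold collagen, 6 were called higher in 5C-C, where 9.65% of all genes were called higher and 20.2% either way, namely P4ha2 (1.67), Fkbp10 (1.42), Plod1 (1.22), Plod3 (1.17), P4hb (1.05) and Ppib (1.01). Of these, P4hb and Ppib lost the call without 5C A or 5C-C A, Plod3 without 5C-C B, and those 3 and Fkbp10 with GC content and length as an offset. In 5C-G, 0 were called, 8 of 10 were above 0 and 4 passed p alone upward (median 0.35). In 5C-E, 0 were called, 9 of 10 were above 0 and 4 passed p alone upward (median 0.62), among them P4ha2 (0.95, adjusted p = 0.00467) and Plod1 (0.93, adjusted p = 0.00602). Plod2, a lysyl hydroxylase, fell in 5C-F (-1.16, adjusted p = 0.00198, but -0.96 with the offset). Of the 9 markers of stellate cells and fibroblasts, among them Col1a1, Col1a2 and Col3a1 of the collagen list, 2 were called higher and 1 lower in 5C-G (median 0.38), 1 and 2 in 5C-C (-0.34), 1 and 1 in 5C-E (0.52) and 0 and 1 in 5C-F (-0.31), against the same shares of all genes. Their part was not tested.

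Of the 13 intracellular clade B members, 1 was called in 5C-G and 2 in 5C-C, where 13.1% and 20.2% of all genes were called. Serpinb6a, a broad inhibitor of the cytosol, and Serpinb6b were the highest, with 51.2 to 119 and 29.5 to 63 FPKM over all libraries. Serpinb6a passed p but not fold in 5C-G (0.88, adjusted p = 0.00203) and 5C-C (0.72, adjusted p = 0.00501). Serpinb9, the granzyme B inhibitor, was at 17.9 and 16 FPKM in 5C and 9.07 and 7.18 in 5C-G (-0.93, adjusted p = 0.00335, under the fold threshold). Serpinb9b rose in 5C-C from 3.29 and 3.05 to 8.92 and 5.87 FPKM (1.38 ± 0.23, adjusted p = 0.000283), which limma on log2(FPKM + 1) put at 0.99. Serpinb1c, from 0.292 and 0.219 FPKM in 5C, was called higher in 5C-G at 1.41 and 1.58 (2.68, adjusted p = 0.00531) and in 5C-C at 1.03 and 0.685 (1.89, adjusted p = 0.0253). The annotated span of Serpinb1c overlaps part of that of Serpinb6b on the other strand, which had 29.5 to 63 FPKM. Reads from the shared stretch cannot be told apart without strand, and overlap of exons was not examined for Serpinb1c. The call in 5C-G was lost without 5C B and that in 5C-C without 5C A, 5C B or 5C-C A, and limma on log2(FPKM + 1) put the values at 0.99 and 0.56. Serpinb1a, an inhibitor of neutrophil proteases, ran from 4.35 to 12.1 FPKM and Serpinb8, an inhibitor of furin, from 1.5 to 2.82, with no call against 5C. Serpinb2 was between 0.512 and 4.31 FPKM and Serpinb5 (maspin) at most at 1.96, and neither was called against 5C. Serpinb9c, Serpinb9e and Serpinb9f were under 1 FPKM throughout.

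Set side by side, the clades had different medians in each comparison. The median log2 fold change of the 18 clade A members was 0.26 for 5C against DMSO, and in the removals of G, C, E and F it was -0.12, -0.04, -0.84 and 0.75. The 5 members of clades E, F and H had -0.14, 0.14, 0.27, -0.15 and 0.42, and the 13 of clade B had 0.40, -0.50, 0.68, -0.18 and -0.40. Over all genes tested the medians were 0.01, -0.01, 0.00, 0.01 and -0.01. Of 180 values for the 15 clade medians under other processing, 48 moved by more than the spread between the libraries compared. Clade A had 1 member called higher and 5 lower in 5C-E, 4 higher and 0 lower in 5C-F, 0 and 2 in 5C-G, 3 and 0 in 5C-C, and 1 and 0 in 5C against DMSO, where 1.96%, 4.84%, 13.1%, 20.2% and 4.55% of all genes were called either way. All 4 in 5C-F are Serpina1 copies and count as 1 when summed, and all 3 in 5C-C are Serpina3 genes, whose sum was not called. The only member of clades E, F and H that was called in these comparisons was Serpinh1. Fitting genes with no more than 3 counts in a group at their bound left these medians as they were.

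Since 5C-F stood apart, it was set directly against the other 3 removals with 2 libraries, a comparison chosen after the values above had been seen and sharing the 5C-F libraries. Members called were 11 higher and 2 lower against 5C-G (8.03% of all genes called), 9 higher and 6 lower against 5C-C (10.2%), and 10 higher and 1 lower against 5C-E (8.74%). These counts take copies singly. Every Serpina1 copy was among those called higher against 5C-C and 5C-E, and all but Serpina1c against 5C-G. The Serpina1 sum, which counts once, was called higher in all 3 (1.48, 1.51 and 2.51 against G, C and E). Serpinc1 was higher in 5C-F by 1.92, 3.15 and 2.68 against G, C and E, Serpind1 by 1.56, 2.34 and 2.15, and Serpina1b by 1.45, 1.36 and 2.42, with adjusted p from 9.8e-08 to 0.000435. Serpinh1 was lower by -1.30, -1.62 and -1.18 (adjusted p at most 0.000344), the last being -0.96 without 5C-E B. Serpini1 was higher in all 3 as well (1.76, 1.18 and 1.32). Without 5C-F A the calls of Serpini1 against 5C-C and 5C-E were lost (adjusted p = 0.117 and 0.0578), and that against 5C-C also without 5C-C B. Serpinf2 was called higher against 5C-G (1.10, but 0.99 without 5C-G A) and 5C-E (1.52). Of clade B, Serpinb9b (-1.44), Serpinb2 (-2.14), Serpinb1a (-1.09) and Serpinb5 (-3.21) were called lower against 5C-C, Serpinb1a not without 5C-F A and Serpinb5 in no fit with 1 of its 4 libraries left out.

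The single 5C-S library was given no test. On the scale of log2(CPM + 1), Serpina3i (1.03) and Serpina3g (1.01) were above the 5C mean by more than 1 and Serpinb5 was below it (-1.01), where 0.659% of all genes were beyond 1 upward and 0.734% downward. These 3 values lay at the edge, and 0 were beyond 1 on the log2(FPKM + 1) scale or without 5C B. Serpinh1 (0.71), Serpinc1 (-0.60), Serpind1 (-0.59) and Serpina3k (-0.54) had the signs they had in 5C-G, 5C-C and 5C-E at a smaller size, and the Serpina1 copies differed by -0.17 to 0.11. The hepatocyte markers summed to 7262 FPKM in 5C-S against 11028 to 11115 in 5C, and their part in these values was not tested.

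Of 25 listed proteases that serpins can trap, 22 were tested, of which 2 were called in 5C against DMSO and 4, 6, 5 and 4 in the removals of G, C, E and F. Of all genes, 4.55%, 13.1%, 20.2%, 1.96% and 4.84% were called in these comparisons, so the counts in 5C-G and 5C-C stood close to the background. Cathepsin S (Ctss), a protease of macrophages, was at 851 and 874 FPKM in DMSO, 140 and 153 in 5C, 814 and 760 in 5C-G and 357 and 333 in 5C-F. It fell in 5C against DMSO (-2.63, adjusted p = 3.37e-08) and rose in 5C-G (2.56) and 5C-F (1.34), comparisons in which 7 of 8 macrophage markers were called the same way. F7, coagulation factor VII, fell in 5C against DMSO too (-1.55, adjusted p = 0.00256), a call lost without 5C B. In 5C-G, F9 fell (-1.82, adjusted p = 0.000103), and F11 and Plau were called lower, the former not without 5C A and the latter not without 5C-G B. In 5C-C, Plg, which encodes plasminogen, went from 38.3 and 30 FPKM in 5C to 7 and 5.64 (-2.27, adjusted p = 7.86e-07). There F9, Plau, C1s1 and Klkb1 were also lower and Prtn3 higher, the last not with GC content and length as an offset. In 5C-E, 5 were lower, F10 (-1.71), F9 (-1.72), Plg (-1.35), F2 or prothrombin (-1.10) and Klkb1, which was at most at 0.391 FPKM in these libraries and was not called without 5C-E B. In 5C-F, Hgfac (1.30) rose besides Ctss, while the calls of Proc (1.21) and Hpn (1.04) were lost without 5C B, and that of Proc also without 5C-F B. Factor IX (F9) was lower in the same 3 removals as antithrombin, from 14.3 and 13.5 FPKM in 5C to between 2.73 and 4.62.

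Of 9 receptors and cofactors, Vtn, which encodes vitronectin, fell in 5C-E from 229 and 238 FPKM to 89.6 and 86.5 (-1.48, adjusted p = 0.000136). Sdc1 (1.48) and Rpsa (1.62) rose in 5C-C. Lrp2 fell in 5C-C (-1.28, but -0.58 with GC content and length as an offset) and 5C-F (-1.37). Plaur, the urokinase receptor, was called in 5C-G (1.05), a call that was lost without 5C A, 5C B or 5C-G B and was 0.65 with the offset. None was called in 5C against DMSO. Agt, angiotensinogen, a serpin by structure under another symbol, rose in 5C-F from 59.4 and 44.5 to 106 and 107 FPKM (1.13, adjusted p = 0.00381), a call lost without 5C B, and was called in no other comparison with 5C or DMSO.

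RefSeq promoter windows (GRCm38.p6, 250 bases before to 50 after a start) were at hand for 32 of the 40 members, with 39 windows in all. The 5 Serpina1 copies, which had 1 sign in 5C-E and 5C-F, shared an unbroken run of 59 bases that no other of the 32851 windows held. It begins between 117 (Serpina1e) and 55 (Serpina1d) bases before the start, and is shown as read for Serpina1b on the minus strand.
Serpina1b, chr12:103738196-103738254: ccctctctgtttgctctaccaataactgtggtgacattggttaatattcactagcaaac
The letters TTGCNNAA, a C/EBP motif, were found on either strand in 28.2% of member windows (Serpina1a, Serpina1b, Serpina1d, Serpina1e, Serpina7 and Serpinc1 among them) and in 10.8% of all windows. TTCNNNGAA, a STAT motif, was in 25.6% against 8.3%, TGACTCA (AP-1) in 12.8% against 5.2%, TATAAA in 20.5% against 13.6%, CAGACA (SMAD) in 20.5% against 21% and GAANNTTC (heat shock element) in 10.3% against 7.86%. TTGCGCAA (a case of the first motif), TTAATNATT (HNF1), CAAAGTCCA (HNF4) and TGACGTCA (CRE) were in 0 member windows and in 0.183%, 1.47%, 0.475% and 1.79% of all. Copies share ancestry, so windows are not independent, and a match is a run of letters and not a site. Only these exact letters were searched, so 0 matches do not show that a site is absent. The run of 59 bases above holds ttaatattc, which resembles TTAATNATT without matching it. The windows of Serpinc1 (plus strand, C/EBP letters in capitals) and Serpinh1 (minus strand, the SMAD letters on the other strand in capitals) are given because these genes moved in opposite directions.
Serpinc1, chr1:160978333-160978632: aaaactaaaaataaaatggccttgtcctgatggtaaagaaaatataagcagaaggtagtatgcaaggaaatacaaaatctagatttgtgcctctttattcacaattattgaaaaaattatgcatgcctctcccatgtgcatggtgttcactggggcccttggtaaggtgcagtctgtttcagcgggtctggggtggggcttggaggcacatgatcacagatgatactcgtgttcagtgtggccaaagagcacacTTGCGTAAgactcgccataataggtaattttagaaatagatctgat
Serpinh1, chr7:99353190-99353489: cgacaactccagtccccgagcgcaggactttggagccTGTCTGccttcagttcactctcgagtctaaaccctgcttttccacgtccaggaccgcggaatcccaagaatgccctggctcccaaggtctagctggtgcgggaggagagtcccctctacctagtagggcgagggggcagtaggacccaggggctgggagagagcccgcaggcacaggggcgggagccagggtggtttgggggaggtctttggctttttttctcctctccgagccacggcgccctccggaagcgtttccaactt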

How the data were processed

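RNA from 13 libraries of cultured dHeps (7 groups, day 16) was sequenced in read pairs. The authors deposited a table of read counts per gene and of FPKM, and the submitters' processing notes name featureCounts, Subread, DESeq2 and the mouse build GRCm39. The versions used for counting, and how strand and multiply mapped reads were handled, are not given in the sources used here. The deposited FPKM and counts gave a single gene length, within 0.2%, for 27140 of 27141 genes. Even numbers made up 71.3% of the counts from 1 to 20. The header of a column gave its group but not its sample, so the letters A and B name columns.

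Counts were tested with edgeR 4.0.16 (R 4.3.3, TMM scaling, quasi-likelihood, Benjamini-Hochberg adjustment) in 1 fit over all groups, with 5C-S adding no residual degree of freedom of its own, 6 in all, and a biological coefficient of variation of 0.261. Genes with low counts were removed by filterByExpr. Named were up to 12 called members per comparison with the largest log2 fold change, a list of secreted, chaperone and intracellular serpins whether called or not, and up to 6 called partner genes. The script was tested on simulated data. Alternatives were total counts only, DESeq2 1.42.0, limma 3.58.1 on log2(FPKM + 1) and log2(FPKM + 0.1) with a mean FPKM of at least 0.1, no filter, only the compared groups, an offset for GC content and length (mgcv 1.9.3), summed copies, no fold threshold and leaving out each library. Identity, shared windows and motifs were computed with Biopython 1.88. The members and gene lists were chosen with earlier results of these data known. The values of 1 member and 1 partner gene are not reported here, though both stay in the fit and the counts.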

Additional observations from a re-analysis of the deposited data

How the results depend on the processing

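No log2 fold change of a member changed sign among 1225 values under the alternatives for 98 reported ones. Of those values, 1107 kept their side of the thresholds, 83 lost a call and 35 gained one, and 58 of the 98 kept theirs under every alternative. For 39 fold changes of partner genes, 451 of 507 values kept their side and 56 lost a call. Of 180 values for 15 clade medians, 48 moved. The number of members called for 5C against DMSO, 2, was 6 with DESeq2, 4 with limma on log2(FPKM + 0.1), 5 with no filter, 10 with only the compared groups, 4 with no fold threshold and 1 to 2 with a library left out. With no fold threshold it was 10 in 5C-G, 16 in 5C-C and 12 in 5C-F. With copies summed it was 4 in 5C-C and 2 in 5C-F, where each family then counts once. With a library left out it was 5 to 7 in 5C-G, 7 to 10 in 5C-C, 3 to 6 in 5C-E and 3 to 6 in 5C-F. For 5C-F set against other removals, chosen after seeing the data, it was 9 with copies summed and 23 with no fold threshold against 5C-C, 7 with copies summed against 5C-E, and 9 to 13, 11 to 16 and 10 to 12 with a library left out against 5C-G, 5C-C and 5C-E. For 5C-S, also added after seeing the data, 0 members were beyond the fold on log2(FPKM + 1), and 0 to 3 with a 5C library left out. Apart from the summing of copies, the cause was not tested. The titles of the samples share no replicate numbers, but the column names end in the digits 1 and 2. Over the 15 pairs of 6 groups, the differences between the digits correlated at -0.03 to 0.08, so the digits were taken to pair nothing. A replicate block on them, added after seeing the data, gave 3 members for 5C against DMSO, 8 for 5C-E and the unblocked numbers elsewhere, Serpinh1 in 5C-E falling under the fold threshold. With 1 library in an arm, that library was assumed to vary like the other groups. Serpina3a, Serpina6, Serpinb9c, Serpinb9e and Serpinb9f had at most 46 counts in a library, and none of them was called.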
